A study of Mus musculus with 8 samples.

Results

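Keratins are the cytoskeletal proteins of epithelia. This account follows the 42 genes whose name in the array files is Krt followed by a digit, measured by 50 probes among the 27599 genes of the array. They were read in pancreatic lymph nodes, which receive lymph from the pancreas, of mice labelled as knockouts of the transcription factor Deaf1. No gene of the array carried an old name of the form Krt1-n or Krt2-n, and genes for keratin-associated proteins were left out. Of the 42 genes, 17 passed the filter on dim probes: Krt1, Krt5, Krt7, Krt8, Krt9, Krt10, Krt13, Krt14, Krt16, Krt17, Krt18, Krt19, Krt20, Krt33b, Krt84, Krt85 and Krt222.

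A keratin filament is built from an acidic type I keratin and a basic type II keratin that pair with each other, and each layer or kind of epithelium makes its own pairs. In mice the type I genes lie together on chromosome 11, apart from Krt18, and the type II genes on chromosome 15, where Krt18 sits beside its partner Krt8. Keratins 8 and 18 pair in simple epithelia, keratins 5 and 14 in the basal layer of stratified epithelia, and keratins 1 and 10 in the epidermal layers above it. Stromal cells of lymph nodes make low levels of many proteins that otherwise belong to peripheral organs, and Deaf1, a DNA-binding protein with a SAND domain, has been studied as a regulator of such genes. Reticular cells of lymph nodes have also been described to hold keratins 8 and 18.

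All mice were BALB/c. Each of 8 Agilent arrays of 2 colours carried the RNA of 1 Deaf1 knockout mouse in Cy5 and that of pooled wild-type littermates, matched for age, in Cy3. At 4 weeks of age there were 2 arrays and pools made from 2 mice. At 12 and at 30 weeks there were 3 arrays per age and pools made from 3 mice. The labels call the arrays of an age biological replicates and do not describe how the allele was made. The dyes were never swapped, so dye and genotype cannot be told apart in any value below. No wild-type mouse was set against the pool, so the spread among wild-type mice is not in any test. That the arrays of an age shared their pool is an assumption.

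Deaf1 itself, read by the brightest of its probes, was not called lower in the knockout channel at any age, and was called higher at 12 weeks. Its log2 ratio of knockout over wild type was −0.22 and −0.12 at 4 weeks, 0.34, 0.35 and 0.32 at 12 weeks, and 0.14, 0.00 and 0.15 at 30 weeks. The limma means were −0.17 ± 0.07 (SE, adjusted p = 0.13), 0.34 ± 0.06 (adjusted p = 0.034) and 0.10 ± 0.06 (adjusted p = 0.23). The labels do not say which stretch of the gene was removed, so this probe does not settle the genotype, and knockout here means a mouse labelled so.

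Some arrays stood apart before any keratin was read. At 12 weeks replicate 2, Xist had a ratio of 5.32 and the Y-linked Eif2s3y one of −4.86, against −0.40 to 0.75 and −0.38 to 0.78 on the other 7 arrays. Ddx3y and Kdm5d, also Y-linked, were at −3.89 and −1.86 there. The knockout RNA on this array thus read as female, against a pool with male RNA. The part of sex in the keratin values of this array was not tested. At 30 weeks the median log2 ratio of 20 pancreatic acinar genes was −4.05, 3.86 and −4.54 on the 3 arrays. Both 4-week arrays lay on a slide of their own, read with an older software version, and 30 weeks replicate 1 shared its slide with the 12-week arrays. In whole nodes, fewer cells of a kind and less RNA per cell cannot be told apart.

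Probe sequences are shown for the simple epithelial pair and for Krt10, on which most of the results turn. Krt18 and Krt8 had the widest spread between mice, and the run of 11 bases that their probes share is in capitals. Over all 190 pairs of the 20 keratin probes that passed the filter, no pair shared a longer run.
Krt18: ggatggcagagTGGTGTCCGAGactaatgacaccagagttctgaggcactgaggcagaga
Krt8: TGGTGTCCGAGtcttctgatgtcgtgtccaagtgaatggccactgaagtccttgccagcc
The Krt18 probe lies at chr15:101859944-101860003 on the plus strand and the Krt8 probe at chr15:101824949-101825008 on the minus strand (build mm8 in the file headers). A second, dimmer Krt8 probe shared at most 5 bases in a row with the Krt18 probe. Krt10 was called at all 3 ages in the limma fit, and its 2 probes did not read alike, so both are given.
Krt10, brighter probe: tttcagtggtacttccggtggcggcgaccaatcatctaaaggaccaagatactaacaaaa
Krt10, dimmer probe: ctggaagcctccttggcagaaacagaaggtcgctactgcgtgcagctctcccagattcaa
The brighter one spans chr11:99201715-99202057 on the minus strand, 343 bases of genome for 60 bases of probe, so it crosses at least 1 intron. The dimmer one lies at chr11:99202770-99202829, further 5′ in the same gene. The longest run that the pair shared was 4 bases. The probes of Krt14, a basal keratin, and Krt19, a keratin of ducts, are given for comparison with other kinds of epithelium.
Krt14: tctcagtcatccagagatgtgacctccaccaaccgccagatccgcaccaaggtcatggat
Krt19: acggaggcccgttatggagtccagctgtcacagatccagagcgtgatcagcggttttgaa
The Krt14 probe spans chr11:100019459-100020064 and the Krt19 probe lies at chr11:99957168-99957227, both on the minus strand.

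Since Krt8 and Krt18 moved together from mouse to mouse, the 250 bases before their start sites are given from RefSeq (GRCm38.p6), 5′ to 3′ on the strand of the gene, beside those of Krt10. Capitals mark TTCGG on either strand, letters within the site that Deaf1 is known to bind, and TATAAA on the sense strand.
Krt8, chr15:102004343-102004592, minus strand: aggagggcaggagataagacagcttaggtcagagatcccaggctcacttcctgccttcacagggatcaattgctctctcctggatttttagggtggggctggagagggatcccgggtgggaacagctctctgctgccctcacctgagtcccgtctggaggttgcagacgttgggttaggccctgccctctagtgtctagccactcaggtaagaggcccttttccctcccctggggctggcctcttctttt
Krt18, chr15:102027966-102028215, plus strand: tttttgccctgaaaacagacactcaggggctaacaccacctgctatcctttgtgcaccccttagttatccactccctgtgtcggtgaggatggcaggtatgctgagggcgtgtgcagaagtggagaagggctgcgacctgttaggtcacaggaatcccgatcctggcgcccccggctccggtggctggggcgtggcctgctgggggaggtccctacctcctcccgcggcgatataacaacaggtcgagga
Krt10, chr11:99389365-99389614, minus strand: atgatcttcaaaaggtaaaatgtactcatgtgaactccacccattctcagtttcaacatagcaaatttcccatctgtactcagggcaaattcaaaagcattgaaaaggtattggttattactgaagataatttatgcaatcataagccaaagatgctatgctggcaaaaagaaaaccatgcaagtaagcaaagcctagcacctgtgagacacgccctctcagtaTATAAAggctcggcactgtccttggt
Neither motif was present in the windows of Krt8 and Krt18, and Krt10 held TATAAA. Windows could be matched for 28 of the 42 keratin genes, 29 windows in all. TTCGG stood in 1 of these 29 (3.45%, Krt34), against 15.8% of all 32851 windows, which reach from 250 bases before a start site to 50 after it. TATAAA stood in 12 of the 29 (41.4%), against 7.59% of all windows. These are matches of letters, and a window without them says nothing about the factor.

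Keratin genes gave a signal well above background less often than genes at large. On each array the scanner software flags a spot as well above its local background, and a gene was counted where at least 1 of its probes was. In the wild-type channel 6 to 17 of the 42 keratins were counted per array (14.3% to 40.5%), against 42.3% to 62.9% of all genes. In the knockout channel there were 8 to 21 keratins (19.0% to 50%), against 50% to 71.1% of all genes. Counting only genes above background on all arrays of an age, the wild-type pool gave 6, 14 and 14 keratins at 4, 12 and 30 weeks and the knockout 6, 17 and 15. Among all genes these shares were 41.7%, 60.0% and 60.3% for the wild type and 49.4%, 65.9% and 59.5% for the knockout. Keratins were thus a less often detected group than the array's genes at large in both channels at each age. The lower keratin count at 4 weeks stood beside a lower share of all genes at that age.

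The detected keratins came from most kinds of epithelium. Krt7, Krt10, Krt17, Krt18 and Krt20 were well above background in both channels of all 8 arrays. Of the 6 simple epithelial keratins 5 passed the filter, as did 2 of the 3 basal keratins, 1 of the 4 of mucosa and cornea, 3 of the 5 suprabasal epidermal ones and 2 of the 7 of stress and skin appendages. None of the 5 keratins of the inner root sheath of the hair passed, and 3 of the 11 of the hair shaft did. In all, 14 genes were never above background in any of the 16 array channels: Krt2, Krt4, Krt6a, Krt6b, Krt27, Krt31, Krt34, Krt36, Krt42, Krt71, Krt78, Krt79, Krt80 and Krt82. A further 9 (Krt15, Krt23, Krt25, Krt26, Krt28, Krt32, Krt33a, Krt35 and Krt76) were so in only 1 or 2 array channels. Krt75, a keratin of the hair follicle's companion layer, and Krt83, a hair keratin, were above background in 4 knockout channels each and did not pass. For Krt75 no wild-type channel was above background, and its log2 ratios ran from −0.09 to 0.19. Those of Krt83, found in 2 wild-type channels, ran from −0.27 to 0.23.

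**Figure D1:**
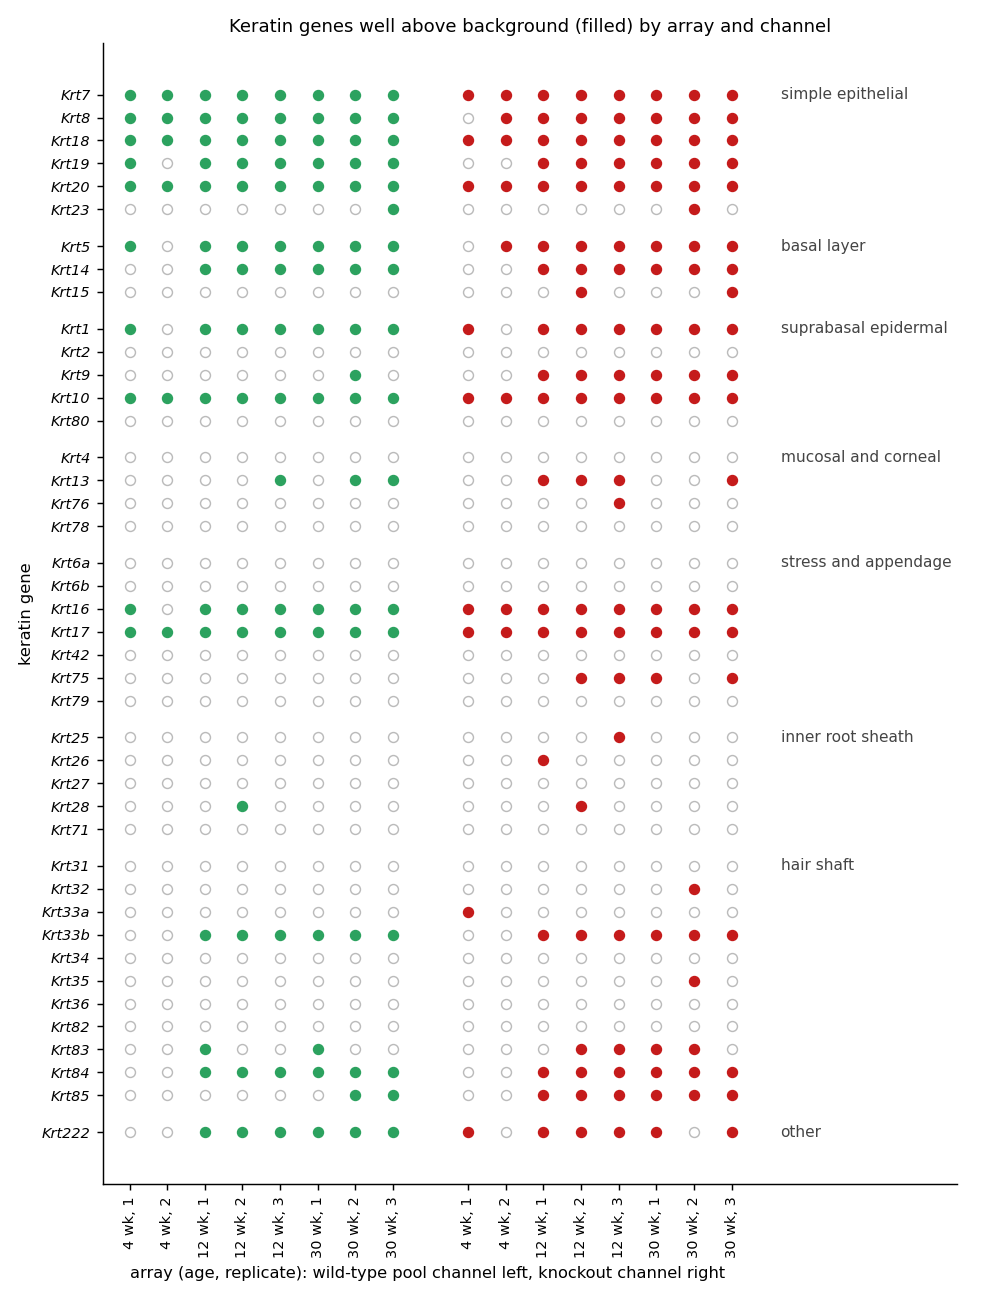
Each row is 1 of the 42 keratin genes, grouped by kind, and each column an array, with the wild-type pool channel on the left and the knockout channel on the right. A filled circle marks a gene well above background; Krt7, Krt10, Krt17, Krt18 and Krt20 are filled in all 16 columns, and 14 rows are empty.

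For a pair of keratins the wild-type channel gives no level to compare with. Krt9, a keratin of palms and soles, and Krt85, a hair cortex keratin, were above background at 12 weeks on all 3 knockout channels and on no wild-type channel. Their mean log2 ratios at that age were −0.10 ± 0.05 and 0.09 ± 0.09 (SE of the fit, n = 3), and with the wild-type channel not well above background these ratios do not tell whether the levels differed, so no fold is given. Krt9, Krt13 and Krt85 passed the filter through the knockout channel only, and no keratin passed through the wild-type channel only. Among all genes at 12 weeks, 65.9% were above background on all 3 knockout channels, against 60.0% on all 3 wild-type channels. The knockout channel thus flagged more genes in general at that age. At 4 weeks 6 of the 17 (Krt9, Krt13, Krt14, Krt33b, Krt84 and Krt85) lay too close to background in both channels. At that age Krt19 was well above background on 0 of the 2 knockout channels and Krt222 on 0 of the 2 wild-type channels.

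Over the 17 keratins that passed, the knockout to wild-type ratio was tested with a limma model of 1 mean per age on all 8 arrays, and a gene is called where its Benjamini-Hochberg adjusted p over 18418 genes is under 0.05. At 4 weeks 2 keratins were called, Krt10 higher and Krt7 lower, where 22.7% of all genes were called, 15.3% higher and 7.37% lower. At 12 weeks it was Krt10 alone, with 2.61% of all genes called, 1.24% higher and 1.37% lower, and at 30 weeks again Krt10 alone, with 39% of all genes called, 20.7% higher and 18.4% lower. The share of keratins called, 2 of 17 at 4 weeks and 1 of 17 at 30 weeks, was below that of all genes at both ages, and 1 of 17 at 12 weeks was above it. These shares rest on 1 or 2 genes, and at 4 weeks 6 of the 17 lay too close to background in both channels. They do not describe keratins as a group. The median log2 ratio of the 17 was −0.07, −0.10 and 0.05 at 4, 12 and 30 weeks, beside medians of 0.02, 0.02 and 0.03 over all genes.

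Krt10, the type I keratin of differentiating epidermis, was higher in the knockout on all 8 arrays. Its log2 ratios were 0.33 and 0.33 at 4 weeks, 0.35, 0.29 and 0.26 at 12 weeks, and 0.58, 0.65 and 0.46 at 30 weeks. The 30-week values lay above all values of the other ages. The fitted means were 0.33 ± 0.07 (SE, n = 2; adjusted p = 0.015), 0.30 ± 0.06 (n = 3; adjusted p = 0.047) and 0.56 ± 0.06 (n = 3; adjusted p = 0.00091), or 1.26-, 1.23- and 1.48-fold. In the wild-type pools the level of this probe was 9.30 and 9.49 at 4 weeks, 8.52 to 8.62 at 12 weeks and 8.64 to 8.77 at 30 weeks, in log2 normalised intensity. The dimmer Krt10 probe read on both sides of 0. Its ratios were −0.08 and 0.19 at 4 weeks, −0.10, −0.09 and 0.04 at 12 weeks, and −0.05, 0.41 and −0.05 at 30 weeks, with levels of 5.93 to 6.85 in both channels.

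The 30-week call of Krt10 held under all 18 alternative settings, with adjusted p from 0.00019 to 0.011. With the mean of both probes in place of the brighter one, the ratios were 0.19, 0.12 and 0.33, and the first 2 were no longer called. With the scanner's own log ratio the calls at 4 and 12 weeks were lost too (0.26 and 0.33, adjusted p = 0.085 and 0.091), as was the 4-week call without 4 weeks replicate 1 or replicate 2 (adjusted p = 0.17 and 0.080). The 12-week call was lost without any of the other 7 arrays in turn, with adjusted p from 0.066 to 0.17, and held only without 12 weeks replicate 2 (adjusted p = 0.048). The fits without 1 array of 12 or 30 weeks that lost this call called 18 to 230 of all genes at 12 weeks. The fit without 12 weeks replicate 2 called 1854, against 481 with all arrays. The partner of Krt10, Krt1, was read by a probe on the plus strand, opposite to the strand of the other Krt1 probe, which was never above background. The Krt1 ratios are therefore given only as that probe's values, −0.62 to 0.58 over the 8 arrays, with no call at any age in the limma fit. Under the scanner's log ratio Krt1 was called lower at 4 weeks (−1.13, adjusted p = 0.017, against −0.31 in the fit).

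Krt7, a type II keratin of ducts and of mesothelium, was lower in the 4-week knockouts. Its ratios were −0.83 and −0.49 at 4 weeks, −0.55, −0.48 and −0.03 at 12 weeks, and −0.47, −0.16 and 0.21 at 30 weeks. Every array but 30 weeks replicate 3 lay below 0, and the ages overlapped. The 4-week mean was −0.66 ± 0.18 (SE, n = 2; adjusted p = 0.029), the 12-week mean −0.35 ± 0.14 (adjusted p = 0.17) and the 30-week mean −0.14 ± 0.14 (adjusted p = 0.47). The second, dimmer Krt7 probe read −0.08 and 0.06 at 4 weeks, so the call rests on the brighter probe. It was lost without 4 weeks replicate 1 (adjusted p = 0.40) or replicate 2 (adjusted p = 0.068), and with the mean of both probes (−0.34, adjusted p = 0.075). With arrays centred on their median in place of loess, Krt7 was at −0.08, where the median of all genes was at 0.49; Krt10 was then at 1.14. Of 8 mesothelial genes 2 were called higher and 2 lower at 4 weeks (all genes 15.3% and 7.37%), with a median ratio of −0.27 and 0.02 on the 2 arrays, and mesothelin (Msln) was at −0.64 and −0.16. Other cell markers also differed at this age. The median of 10 fat cell genes was −1.52 and −0.58, with Cidec and Plin4, proteins of fat droplets, called lower (−1.55 ± 0.45 and −1.63 ± 0.47, adjusted p = 0.039 and 0.040). Another of the 10, Lpl, was called higher (1.41 ± 0.24, adjusted p = 0.0050). Of 12 fibroblastic reticular cell genes 4 were called higher, 1 lower and 7 not at all, with a median ratio of 0.20 and 0.05 on the 2 arrays. Among the 4 called higher were the matrix proteoglycans Lum (1.36 ± 0.12) and Dcn (1.33 ± 0.16) and the receptor Pdgfra (0.82 ± 0.15), with adjusted p from 0.00048 to 0.0069. The part of these cells in the Krt7 ratio was not tested.

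**Figure D2:**
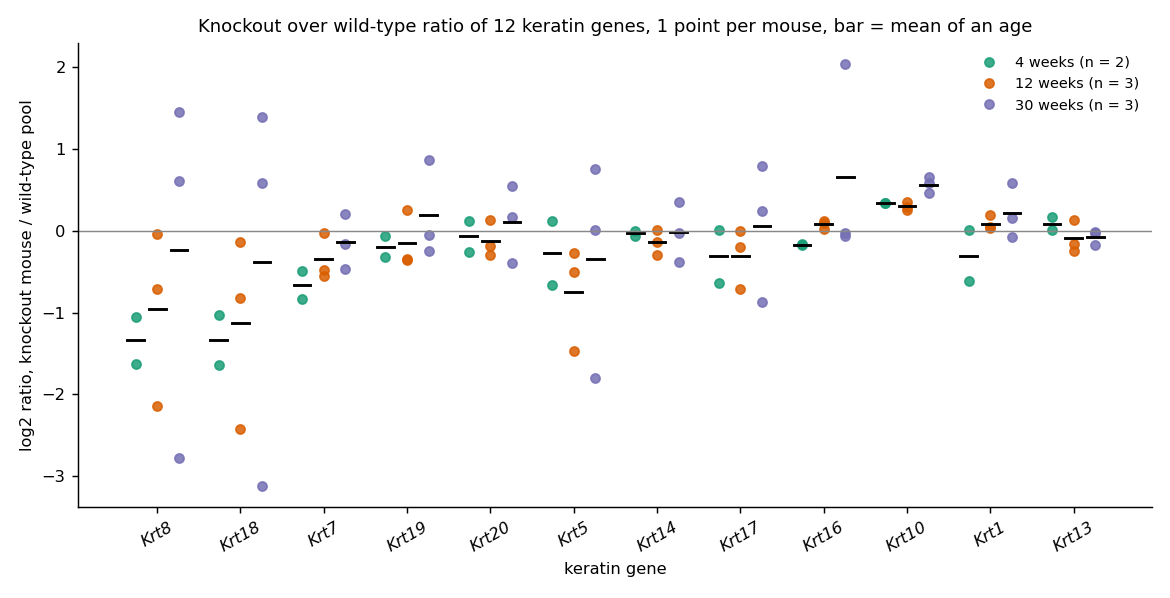
Log2 ratio of knockout mouse over wild-type pool (vertical axis) for 12 keratin genes (horizontal axis), 1 point per mouse and colour by age, with a bar at the mean of each age. Krt10 lies above 0 on all 8 arrays, while Krt18 runs from −3.11 to 1.39 and Krt8 from −2.77 to 1.45 among the 30-week mice.

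The simple epithelial pair varied widely from mouse to mouse. Krt18 had ratios of −1.64 and −1.03 at 4 weeks, −0.83, −2.43 and −0.13 at 12 weeks, and −3.11, 1.39 and 0.58 at 30 weeks. Krt8 had −1.62 and −1.06, then −0.71, −2.14 and −0.04, then −2.77, 1.45 and 0.61 on the same arrays. The 5 younger knockouts were all below their pools, and the 30-week knockouts lay on both sides. The second Krt8 probe gave −1.23 and −1.27, −0.68, −2.05 and −0.06, and −2.61, 1.3 and 0.40. At 4 weeks Krt8 was well above background on 1 of the 2 knockout channels. All 3 probes put 30 weeks replicate 1 and 12 weeks replicate 2 lowest and 30 weeks replicate 2 highest.

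No mean of the pair passed the test. For Krt18 the means were −1.33 ± 0.93, −1.13 ± 0.76 and −0.38 ± 0.76 at 4, 12 and 30 weeks (SE), with adjusted p of 0.35, 0.38 and 0.72. For Krt8 they were −1.34 ± 0.86, −0.96 ± 0.70 and −0.24 ± 0.70, with adjusted p of 0.31, 0.42 and 0.81. The 95% interval for Krt18 at 30 weeks reached from −2.12 to 1.36, which covers both directions. The SD of Krt18 and Krt8 within an age, 1.70 and 1.58, both stood at percentile 99.7 of the 18418 genes, whose median SD was 0.15. Without 30 weeks replicate 2 and 12 weeks replicate 2, a choice made after the data were seen, the 30-week means became −1.27 for Krt18 and −1.08 for Krt8 (adjusted p = 0.18 and 0.21).

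At 12 and 30 weeks the spread lay in the knockout channel. In the wild-type channel Krt18 was at 9.27, 9.25 and 9.30 at 12 weeks and at 10.53, 10.54 and 10.60 at 30 weeks, whereas the knockout mice were at 8.44, 6.82 and 9.17 and at 7.41, 11.93 and 11.18. At 4 weeks both channels differed between the arrays, 8.75 and 9.81 in the pool and 7.11 and 8.79 in the knockout. Krt8 behaved alike, with pools at 8.39 to 8.47 and 9.46 to 9.49 and knockouts at 6.34 to 8.36 and 6.72 to 10.91 at 12 and 30 weeks. A pool averages 3 mice, so it does not show how far single wild-type mice differ. If the arrays of an age shared their pool, as assumed, the pool values repeat the same RNA and would lie level for any gene. The contrast between the channels is therefore no measure of a wider spread among knockouts than among wild-type mice.

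**Figure D3:**
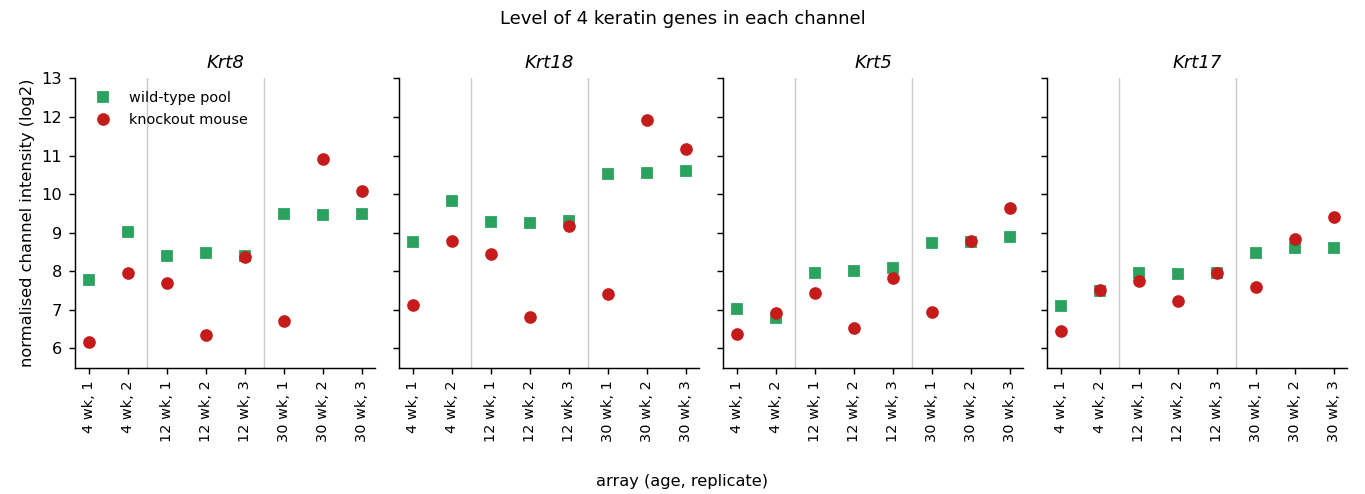
Log2 normalised intensity (vertical axis) of Krt8, Krt18, Krt5 and Krt17 on each array (horizontal axis), with squares for the wild-type pool and circles for the knockout mouse, and grey lines between ages. Within 12 and within 30 weeks the squares lie almost level, while the circles of Krt18 range from 6.82 to 9.17 and from 7.41 to 11.93. If the arrays of an age shared their pool, its squares repeat the same RNA.

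Krt5 and Krt17 ordered the mice in nearly the same way as the simple pair. Krt5, the type II keratin of basal cells, had ratios of −0.66 and 0.12 at 4 weeks, −0.50, −1.47 and −0.27 at 12 weeks, and −1.80, 0.01 and 0.75 at 30 weeks. On neither 4-week array was Krt5 well above background in both channels. Krt17, induced in injured skin and made in appendages, had −0.65 and 0.01, then −0.20, −0.71 and −0.00, then −0.87, 0.23 and 0.79. Krt14, which pairs with keratin 5, ranged less: −0.00 and −0.06, then −0.13, −0.30 and 0.00, then −0.39, −0.02 and 0.35. For these 3 genes 30 weeks replicate 1 was the lowest array, 12 weeks replicate 2 the second lowest and 30 weeks replicate 3 the highest. Neither Krt5, Krt14 nor Krt17 was called at any age (lowest adjusted p = 0.30, Krt5 at 12 weeks, mean −0.75 ± 0.43). The SD within an age was 0.95 for Krt5 and 0.62 for Krt17, at percentiles 99.2 and 98.3 of all genes.

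Several genes of thymic epithelium and of immature thymocytes had their low and high values on the same arrays as Krt5 and Krt17. The list was chosen after the values were seen, so this is a description only. It holds 11 genes, of which 9 passed the filter. On the arrays in order of age and replicate its median ratio was −0.44, 0.08, −0.22, −0.94, 0.02, −1.79, 0.07 and 1.04. Ccl25, a chemokine of thymic epithelium, had −0.44, 0.49, −0.22, −1.70, −0.19, −2.37, 0.07 and 1.27. Dntt, which adds bases to rearranging receptor genes, had −0.94, −0.07, −0.53, −2.19, 0.00, −2.22, 0.02 and 1.04. As with Krt5, 30 weeks replicate 1 and 12 weeks replicate 2 were the low arrays and 30 weeks replicate 3 the high one. Ptcra, the receptor chain of early thymocytes, did not share this order: it was highest on 12 weeks replicate 3 (0.18) and was at 0.01 on 12 weeks replicate 2. Rag1, the recombinase, and Psmb11, the thymic proteasome subunit, had the low and high arrays of Krt5, at −2.67 and −1.86 on the lowest and 1.27 and 0.62 on the highest.

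The summed level of the 9 genes, in log2, was 11.68 to 11.72 in the 12-week pools and 12.41 to 12.46 in the 30-week pools, against 10.03 to 11.65 and 10.37 to 13.54 in the knockouts. At 4 weeks it was 11.39 and 11.03 in the pools and 10.82 and 11.21 in the knockouts. As for Krt18, pools that lie level within an age do not show how far single wild-type mice differ. Ccl25 and Dntt were above background in all 16 array channels, while Foxn1, the master regulator of thymic epithelium, and Rag2 were so in 2 knockout channels each and in no wild-type channel. Per array, 50% to 71.1% of all genes were above background in the knockout channel, against 42.3% to 62.9% in the wild-type channel. None of the 9 genes was called at any age (lowest adjusted p = 0.25), and their part in the keratin ratios was not tested. Krt8 and Krt18 shared the low arrays, but their highest array was 30 weeks replicate 2. On 4 weeks replicate 2 they were at −1.06 and −1.03 where Krt5 was at 0.12 and the thymic median at 0.08. In the wild-type channel of 4 weeks replicate 2, Krt5 was not well above background.

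The array of 30 weeks replicate 2 stood out for a further set of keratins. Krt16, a type I keratin of stressed and thickened skin, had a ratio of 2.04 on 30 weeks replicate 2 and of −0.18 to 0.12 on the other 7 arrays. Krt19, of ducts and many simple epithelia, had 0.86 there and −0.36 to 0.25 elsewhere. Krt23, which did not pass the filter and is named after its values were seen, had 2.03 there and −0.46 to 0.13 elsewhere, and its only knockout channel above background was that of this mouse. The 30-week means, 0.65 ± 0.34 for Krt16 and 0.19 ± 0.20 for Krt19, were not called (adjusted p = 0.17 and 0.50). Without 30 weeks replicate 2 the mean of Krt16 was −0.04.

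Epithelial and acinar genes were also highest on this array. The acinar list, 20 genes, had a median of 3.86, and its carboxypeptidase Cpa1 a ratio of 3.98. Cdh1, the epithelial cadherin, was at 1.40 there and at −0.36 to 0.12 elsewhere, and Perp, a desmosomal membrane protein, at 1.75 there and at −0.84 to 0.45 elsewhere. The median of 14 general epithelial genes was 0.40 on this array and −0.33 to −0.04 on the others. For 6 pancreatic duct genes the median was 0.43 on this array and −0.19 to 0.09 on the others. Epcam, an adhesion molecule of epithelia, was not raised there, at −0.27. The part of these cells in the keratin values was not tested. On the other 30-week arrays the acinar list was at −4.05 and −4.54 while Krt18 was at −3.11 and 0.58. In the summed log2 level of the acinar list the 30-week pools read 17.76 to 19.45 and the knockouts 14.92 to 21.71, against 11.11 to 13.28 and 10.95 to 12.01 at the younger ages.

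**Figure D4:**
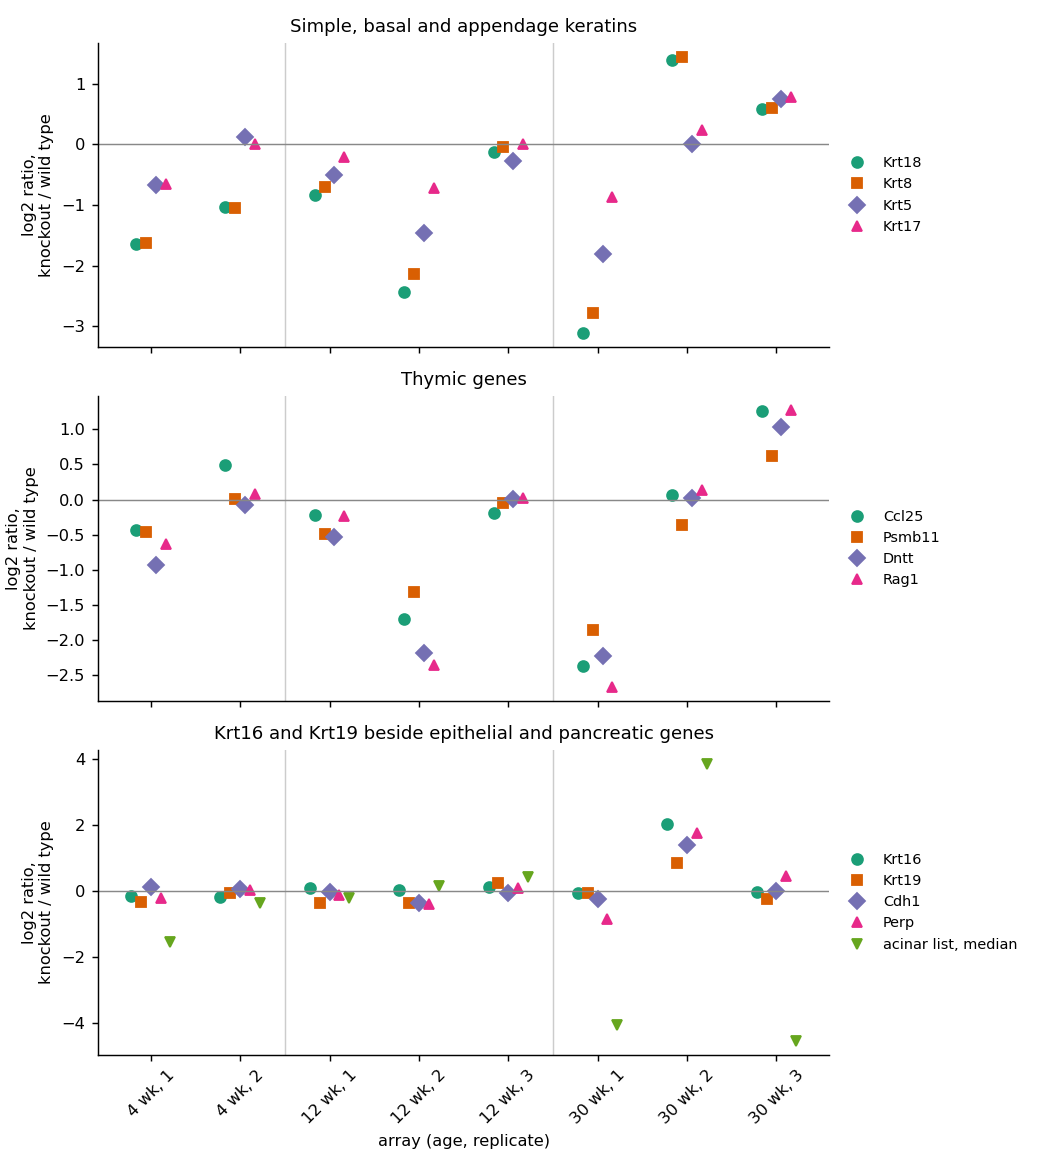
Log2 ratio of knockout over wild type (vertical axis) on each array (horizontal axis, grey lines between ages) for 4 keratins, 4 thymic genes, and Krt16 and Krt19 beside Cdh1, Perp and the median of 20 acinar genes. The keratins of the top panel and the thymic genes share their lowest arrays, 30 weeks replicate 1 and 12 weeks replicate 2, and Krt16 and Krt19 are high only on 30 weeks replicate 2.

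The remaining keratins that passed the filter were not called at any age in the limma fit. Krt20, of intestinal and urothelial epithelium, ranged from −0.39 to 0.55 and was split between higher and lower arrays at each age. Its SD within an age, 0.35, stood at percentile 94.3 of all genes. Krt13, of mucosal linings, ranged from −0.25 to 0.16, and Krt33b, of the hair cortex, from −0.06 to 0.18. Krt84, a type II keratin of tongue papillae and nails, was 0.31 and 0.15 at 4 weeks with a mean of 0.23 ± 0.09 that missed the threshold (adjusted p = 0.099), and was −0.00 to 0.24 at the later ages. Krt84 was called at 4 weeks, at 1.00, when the scanner's own log ratio was used, and at 0.56 with a normexp offset of 10, at an age where neither channel was well above background. Krt222, an atypical keratin-like gene, ranged from −0.15 to 0.35.

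Age was compared by the difference between 2 age means, in which a dye bias that is equal on all arrays cancels. No keratin was called from 4 to 12 weeks (6.98% of all genes called, 1.37% higher and 5.61% lower), from 12 to 30 weeks (0.776%, 0.32% higher and 0.456% lower) or from 4 to 30 weeks (18.8%, 7.09% higher and 11.7% lower) in the limma fit. At an unadjusted p under 0.05 the counts were 0, 1 and 3 of 17. The 1 was Krt10, which was 0.27 ± 0.09 higher in its ratio at 30 than at 12 weeks (adjusted p = 0.14). Within the slide that held both ages the Krt10 difference was 0.28, with 30 weeks replicate 1 as the only array of its age. Not every keratin kept its sign there: Krt18 was at −1.99, against 0.75 in the fit. The 3 were Krt10 (0.23 ± 0.10), Krt1 (0.52 ± 0.22) and Krt7 (0.52 ± 0.23) from 4 to 30 weeks, all with adjusted p from 0.13 to 0.14. Slide and age cannot be told apart for the 4-week arrays.

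With slide as a random block, 9 keratins were called at 12 weeks in place of 1, with Krt18 at −1.90 and Krt5 at −1.16. That fit used an estimated correlation within slides of −0.26, and it called 8973 of all genes at 12 weeks, against 481 without the block.

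Genes whose proteins work with keratins were read from lists drawn up with earlier results of these data known. Of 14 genes of desmosomes and hemidesmosomes, the junctions that anchor keratin filaments, none passed at 4 or 12 weeks, and 3 rose and 3 fell at 30 weeks, when 39% of all genes were called. Integrin α6 (Itga6) was at 0.34 ± 0.08, plakophilin 2 (Pkp2) at 0.59 ± 0.14 and collagen XVII (Col17a1) at 0.53 ± 0.14, while plectin (Plec), which links filaments to hemidesmosomes, was at −0.46 ± 0.08 (adjusted p from 0.0033 to 0.018). The median of the 14 was 0.07 at 30 weeks. Of 11 cornified envelope genes that passed, none was called at any age, the nearest being the protease Asprv1 at 4 weeks, −1.04 ± 0.33 (adjusted p = 0.057).

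Of 11 regulators and binding partners of keratins, none passed at 4 or 12 weeks and 5 fell at 30 weeks, when 18.4% of all genes were called lower. Stratifin (Sfn), a 14-3-3 protein that binds keratins 17 and 18, was at −0.71, −0.73 and −0.75 there (mean −0.73 ± 0.08, adjusted p = 0.0010). Trichoplein (Tchp), which binds keratins 8 and 18, was at −0.57, −0.58 and −0.57 (mean −0.57 ± 0.09, adjusted p = 0.0024). Both stayed within a narrow range on the same 3 arrays on which Krt18 ran from −3.11 to 1.39. The mitochondrial chaperone Trap1 was at −0.73 ± 0.13 and Fbf1, a keratin-binding protein of cell borders, at −0.24 ± 0.07.

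Intermediate filament genes other than keratins, among them those of muscle, nerve and mesenchymal cells and the lamins of the nucleus, gave 1 call of 10 at 4 weeks and 1 at 12 weeks. At 30 weeks 5 of 10 rose and 2 fell, beside 39% of all genes called. Vimentin (Vim), the filament of mesenchymal and blood cells, was higher at 4 weeks (0.42 ± 0.08, adjusted p = 0.0073) and at 30 weeks (0.43 ± 0.06, adjusted p = 0.0019). Desmin (Des), the muscle filament, fell by 0.68 ± 0.12 at 12 weeks (adjusted p = 0.034) and by 1.02 ± 0.12 at 30 weeks (adjusted p = 0.0010). Synemin (Synm), which joins desmin and vimentin filaments, was 1.17 ± 0.16 higher at 30 weeks (adjusted p = 0.0015), and lamin B2 (Lmnb2), of the nuclear envelope, 0.54 ± 0.11 higher (adjusted p = 0.0062). The difference between these genes and the keratins was not tested.

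General epithelial genes gave 1 call at 4 weeks, St14, a membrane protease, at −0.40 ± 0.09 (adjusted p = 0.012), none of 14 at 12 weeks, and 2 at 30 weeks. The latter were Epcam, at −0.46 ± 0.11, and Lad1, of the basement membrane zone, at −0.48 ± 0.10 (adjusted p = 0.0097 and 0.0068). Over all genes 22.7%, 2.61% and 39% were called at 4, 12 and 30 weeks. The fat cell gene Adipoq and the leukocyte gene Ptprc showed other orders than the keratins: Adipoq was lowest on 12 weeks replicate 1 (−2.57), and Ptprc was highest at 4 weeks (1.34 and 1.16, against −0.18 to 0.37 at the later ages), while the median of 10 lymphocyte genes was −0.07 and −0.01 on the 4-week arrays and Cd2, of T cells, was called lower there (−0.58 ± 0.16, adjusted p = 0.033).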

How the data were processed

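The members and gene lists were chosen with earlier results of these data known, and the thymic list after the values were seen. RNA of pancreatic lymph nodes was amplified, labelled and hybridised by the authors. Per the file headers, the deposited scanner files hold intensity values (mean spot, local background and processed signal), a log10 ratio of red over green and quality flags, written by Agilent Feature Extraction 9.5.3.1 (4 weeks, build mm8) or 10.2.1.3 (mm9). A table deposited by the authors holds log2 ratios that match the processed signals of red against green in the scanner files (Pearson correlation 0.99999 or higher); it was not centred and was used as an alternative. Depth has no meaning here, and the number of arrays limits the precision.

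The limma package (3.58.1, R 4.3.3) was used throughout: normexp with offset 50 on the mean signals, then loess within each array, where controls had weight 0 and spots flagged as outliers were dropped. A probe was kept if, for at least 1 age, every array had it well above background in 1 and the same channel (27472 of 41174). Each gene was read by its brightest probe (18418 genes), in a model with a mean for each age over the 8 arrays. Channel levels are from the Aquantile method. Probe names came from accessions in the files through RefSeq (24375 probes), a current symbol (6301) or a synonym (2422), else the file's name was kept (8076); keratins were found by the file's name. Of the keratins, those that passed are named, as are Krt75, Krt83 and others outside the filter by detection, and up to 4 genes of another list by smallest adjusted p; Perp, Krt23, Ccl25, Ptcra, Foxn1 and Rag2 were named after their values were seen. The fit was tested on simulated data. Alternatives covered background, normalisation, filter, probe choice, the deposited ratios, replicate and slide blocks, and each array left out.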

Additional observations from a re-analysis of the deposited data

Results flagged for a closer look

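No keratin had a difference between ages that passed the test. Among the genes named beside them, the knockout to wild-type log2 ratio differed between ages in the limma fit as follows, each by the test of the difference itself. Sfn had a ratio 0.63 lower at 12 than at 4 weeks (−0.63, adjusted p = 0.029) and 1.05 lower at 30 than at 4 weeks (−1.05, adjusted p = 0.0027). Ptprc differed by −1.33 from 4 to 12 weeks (adjusted p = 0.0048) and by −1 from 4 to 30 weeks (adjusted p = 0.0023). From 4 to 30 weeks the ratio of Tchp differed by −0.60 (adjusted p = 0.024), that of Des by −0.90 (adjusted p = 0.014), that of Lmnb2 by 0.86 (adjusted p = 0.014) and that of Lad1 by −0.55 (adjusted p = 0.047). Lum, Dcn and Pdgfra differed by −0.88, −1.19 and −0.86 from 4 to 12 weeks (adjusted p = 0.016, 0.016 and 0.037). From 4 to 30 weeks the same genes differed by −0.88, −0.97 and −0.78 (adjusted p = 0.0070, 0.015 and 0.027). Lpl differed by −1.65 from 4 to 12 weeks (adjusted p = 0.022). Of all genes 6.98% were called from 4 to 12 weeks and 18.8% from 4 to 30 weeks. Each of these differences is taken against the 4-week arrays, for which age cannot be told apart from slide and software version.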

How the results depend on the processing

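Of 888 keratin values under alternatives, 846 stayed on their side of the threshold, 23 lost a call, 19 gained one and none of the called values reversed; 46 uncalled values changed sign. With the scanner's log ratio or the deposited log2 ratios, the 4-week calls were 3 (Krt7, Krt1 and Krt84) and Krt10 was not among them (0.26, adjusted p = 0.085 and 0.084), calls at 12 weeks fell to 0 and rose to 2 at 30 weeks (Krt10, Krt84), 1 from 4 to 12 weeks (Krt1) and 2 from 4 to 30 weeks (Krt1, Krt84), and the median keratin ratio at 4 weeks was −0.43. Of all 18418 genes the scanner's log ratio called 6406, 173 and 7138 at 4, 12 and 30 weeks. The deposited ratios called 6493, 180 and 7093, against 4175, 481 and 7186 in the main fit. A normexp offset of 10 gave 0 keratin calls at 12 weeks (276 of all genes). The mean of a gene's probes gave 0 at 4 and 12 weeks (3485 and 313 of all genes). Median centring gave 3 at 12 weeks (Krt10 higher, Krt9 and Krt13 lower), where 10315 of all genes were called. Median centring put the median of all genes at 0.49, 0.41 and 0.15 at 4, 12 and 30 weeks and the share of called genes that were higher at 96.0%, 94.0% and 88.1%, against 67.5%, 47.4% and 53.0%.

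Leaving out 1 array gave 0 to 2 calls at 4 weeks, 0 to 1 at 12 weeks, 1 at 30 weeks and 0 in each difference between ages. The 0 at 4 weeks came from the fits that left 1 array at that age. Over all genes, fits without 1 array of 12 or 30 weeks called 3238 to 5179 genes at 4 weeks. They called 18 to 1854 at 12 weeks and 3942 to 7952 at 30 weeks. With all arrays these counts were 4175, 481 and 7186 of 18418. Leaving out 12 weeks replicate 2 and 30 weeks replicate 2 together, chosen after the data were seen, gave 0 at 12 weeks, where 1799 of all genes were called. With the replicate number as a block there was 1 call at 4 weeks (Krt7) and 0 at 12 weeks, where 2751 and 314 of all genes were called. The numbers did not pair the samples: deviations of 7 same-numbered pairs correlated at −0.08 to 0.24, 2 of them over 0.1, and 3 of 8 arrays correlated best with their own number. Slide as a random block gave 9 calls at 12 weeks, 1 from 12 to 30 weeks (Krt10) and 2 from 4 to 30 weeks (Krt10, Krt1). With slide as a fixed term the lowest adjusted p of a keratin from 12 to 30 weeks was 0.61.

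Counting spots significantly above background on all arrays of an age gave 13, 25 and 25 keratins in the wild type at 4, 12 and 30 weeks. These were 31.0%, 59.5% and 59.5% of the keratins, against 55.6%, 71.8% and 72.4% of all genes. The knockout gave 15, 30 and 23 keratins (35.7%, 71.4% and 54.8%), against 61.8%, 77.2% and 72.6% of all genes. Counting those well above background on at least 1 array gave 10 in the wild type at 4 weeks (23.8%, against 55.0% of all genes). In the knockout it gave 11 and 23 at 4 and 30 weeks (26.2% and 54.8%, against 57.5% and 70.2% of all genes). The cause of these shifts was not tested. Signal near background limits what can be said of the 25 keratins that did not pass the filter, and the 2 or 3 mice of an age limit the rest.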

Other observations

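A further 4 keratin genes lay on the array under other file names and were named through their accession, so they were not counted above. Krt88 was well above background in 1 wild-type and 6 knockout channels, with log2 ratios of −0.14 to 0.23. Krt90 was so in 0 wild-type and 5 knockout channels, with ratios of −0.19 to 0.14. Krt86 was so in 2 wild-type and 3 knockout channels and Krt12, a keratin of the cornea, in none.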
